A study of Rattus norvegicus with 30 samples.

Results

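The genes described here are the nuclear genes for subunits of the mitochondrial respiratory chain and ATP synthase, measured by RNA sequencing of rat plantaris tendon. They were taken from the count table by name: every gene whose symbol begins with Ndufa, Ndufb, Ndufc, Ndufs, Ndufv, Uqcr or Atp5, the 4 genes Sdha to Sdhd, and the Cox4 to Cox8 genes, with the assembly factors named Ndufaf left out. This gave 75 of the 13124 genes in the table, and all 75 passed the filter on low counts, a group mean of 3 or more CPM (counts scaled to the size of the library) somewhere among the 7 groups. By name, 34 belong to complex I, 4 to complex II, 7 to complex III, 13 to complex IV and 17 to complex V. Cox7a1, Cox7a2 and the subunits encoded by mitochondrial DNA were not analysed here.

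The study asked whether GSK2894631A, an inhibitor of hematopoietic prostaglandin D synthase, changes how a cut and sutured tendon recovers. The animals were 3-month-old male Sprague Dawley rats. In 6 groups the plantaris tendon was cut, repaired and collected after 7 or 21 days, and the rats received 0 (vehicle), 2 or 6 mg/kg of the compound by oral gavage 2 times a day. These groups are named 7D 0 mg/kg (n = 5 tendons), 7D 2 mg/kg (n = 4), 7D 6 mg/kg (n = 3) and 21D 0, 2 and 6 mg/kg (n = 5 each). The controls (n = 3) had neither surgery nor compound, so surgery and vehicle gavage cannot be told apart in any comparison with them, and all 6 such comparisons share these 3 tendons. Each tendon came from the right leg and was cut just short of the muscle and the heel bone.

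Respiratory chain complexes I to IV pass electrons from NADH and succinate to oxygen, complexes I, III and IV pump protons across the inner mitochondrial membrane, and complex V, the ATP synthase, uses the returning protons to make ATP. Complex II, the succinate dehydrogenase, also works in the TCA cycle and is built from nuclear-encoded subunits alone. Skeletal and heart muscle hold many mitochondria, and some complex IV subunits have a form made mainly in muscle: Cox6a2 and Cox8b are such forms, and Cox6a1 and Cox8a are their widely expressed counterparts. Tendon is made mostly of collagen and holds few cells.

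The 30 tendons had 12405741 to 49909374 counts. Tendon markers were present in every library: the 9 marker genes in the table, among them Col1a1, Tnmd and Scx, had 0.668% to 5.99% of the counts, and none was at 0 counts in any tendon. Skeletal muscle markers were also present, and differed between the groups. Their 31 genes in the table took 19.9% to 28.3% of the counts in controls, 0.178% to 1.32% with vehicle at 7 days, 0.00959% to 0.0117% with 2 mg/kg and 0.0104% to 0.0128% with 6 mg/kg. At 21 days they took 0.0681% to 8.21% with vehicle, 1.28% to 3.35% with 2 mg/kg and 0.349% to 9.99% with 6 mg/kg. Ckmt2 and Myoz2 were at 0 in some 7D 2 mg/kg tendons, and no other muscle marker was at 0 in any tendon. Macrophage markers (10 genes) took a larger share after repair: 0.0286% to 0.158% of counts in controls and 0.171% to 0.846% in the repaired tendons. In 7D 0 mg/kg 7 of the 10 were higher, where 35.8% of all genes were. Without control replicate 4, described below, 3 of the 10 were higher, near the share of all genes (3854 of 12535). Adipocyte markers (8 genes) were highest at 7 days: they took 0.0330% to 0.0727% in controls, 0.0855% to 0.4% over the 7D tendons and 0.0254% to 0.112% over the 21D tendons. In 7D 0, 2 and 6 mg/kg, 4, 7 and 6 of the 8 were higher than control, where 35.8%, 35.8% and 34.1% of all genes were. None was higher at 21 days, where 30.8% to 33.8% of all genes were. Without control replicate 4 the 7-day counts were 1, 7 and 6, where 3854, 3897 and 3771 of 12535 genes were higher. Control replicate 4 stood apart: it had the highest muscle share and the lowest tendon marker share, and its CPM over the mean of the other 2 controls was 2.79 for the median respiratory chain gene, against 0.974 for the median of all genes. The counts and medians of the respiratory chain genes against control are therefore given with and without it.

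Promoters were found for 67 of the 75 genes in RefSeq sequences of the GRCr8 build (the counts were made on rn6), and 300 bases, 250 before and 50 after the transcription start, were searched on both strands. The 3 below are shown 250 bases long, up to the start, with motif matches on either strand in capitals, because Cox6a2 and Cox8b had the deepest falls of all members in 5 of the 6 repaired groups, where 21D 6 mg/kg was the exception (Ndufa4l2, -3.33), and Cox8a rose. Cox6a2 (chr1:192219717-192219966, minus strand) held an E-box, the letters CAGCTG bound by myogenic factors such as MyoD, 107 bases before the start and a MEF2 motif 50 bases before it; Cox8b (chr1:205408274-205408523, minus strand) held E-boxes 100 and 62 bases before the start; Cox8a (chr1:213833624-213833873, minus strand) held the ETS motif CCGGAAGT, the kind bound by NRF-2 (GABP), 58 and 20 bases before the start, and a YY1 motif AAGATGGC that begins 4 bases before it and runs past the printed end. Cox8a also had the ERR motif AAGGTCA 11 bases after the start, outside the printed stretch.
Cox6a2: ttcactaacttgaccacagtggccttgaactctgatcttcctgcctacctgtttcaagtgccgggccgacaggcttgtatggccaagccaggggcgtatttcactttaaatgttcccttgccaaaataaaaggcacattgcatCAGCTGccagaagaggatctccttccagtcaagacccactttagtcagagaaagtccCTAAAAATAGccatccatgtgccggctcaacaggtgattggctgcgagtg
Cox8b: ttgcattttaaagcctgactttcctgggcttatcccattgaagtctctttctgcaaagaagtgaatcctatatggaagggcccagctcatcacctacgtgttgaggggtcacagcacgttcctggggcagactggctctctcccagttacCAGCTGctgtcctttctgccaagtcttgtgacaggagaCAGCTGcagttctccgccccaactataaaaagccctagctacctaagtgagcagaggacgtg
Cox8a: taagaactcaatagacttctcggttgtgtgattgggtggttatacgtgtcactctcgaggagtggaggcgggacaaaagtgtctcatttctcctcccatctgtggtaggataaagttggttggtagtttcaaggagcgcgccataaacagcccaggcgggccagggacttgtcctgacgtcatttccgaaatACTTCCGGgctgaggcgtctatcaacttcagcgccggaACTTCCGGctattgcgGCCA

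Among the 67 promoters, 22.4% held the YY1 motif, against 3.44% of all 27457 promoters searched in the same way. The NRF1 motif GCATGCGC was in 11.9% against 2.66%, the ETS motif in 11.9% against 4.01%, and the estrogen-related receptor (ERR) motif in 14.9% against 4.37%. The E-box was in 14.9% against 15.1%. The MEF2 motif was in 1.49% against 0.605%, and the 1 gene that held it was Cox6a2. The median GC content was 56.3% for the 67 promoters and 52.3% for all of them. A promoter can hold several of these motifs and is then counted for each. A match in these windows is a description of the sequence and not a measure of binding.

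The first question was how repaired tendons differed from uninjured ones. Nearly all respiratory chain genes were lower after repair: 71 of 75 were lower than control in each of the 6 repaired groups, with a median fall in 7D 0 mg/kg of 2.27 on the log2 scale (4.83-fold) and one of 1.90 after 21 days of vehicle. A gene is called lower or higher at an adjusted p under 0.05 in edgeR (quasi-likelihood test, Benjamini-Hochberg adjustment over all 12558 genes kept). Of all genes kept, 35.6% were lower and 35.8% higher in 7D 0 mg/kg, and the median log2 fold change of all genes was 0.05, or 0.64 when libraries were scaled by their total counts alone, where the median of the respiratory chain genes was -1.59. In 7D 2 mg/kg the shares were 34% and 35.8%, and the median of the respiratory chain genes was -2.20. In 7D 6 mg/kg they were 33.8% and 34.1%, with a median of -2.35. At 21 days, 33.7% of all genes were lower and 32.2% higher with vehicle. The shares were 35.3% and 33.8% with 2 mg/kg, 33.3% lower and 30.8% higher with 6 mg/kg, and the medians of the respiratory chain genes at 2 and 6 mg/kg were -2.08 and -1.78. Every 7D 0 mg/kg tendon was below every control for 70 of the 75 genes, as was every 21D 0 mg/kg tendon, where 30.7% and 27.8% of all genes had this pattern.

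Leaving out control replicate 4 left 71 genes lower in each 7D group. At 21 days it left 69 with vehicle, 71 with 2 mg/kg and 66 with 6 mg/kg. Of all 12535 genes kept in that fit, 4438, 4227 and 4169 were lower in 7D 0, 2 and 6 mg/kg. In 21D 0, 2 and 6 mg/kg 4075, 4371 and 3942 were. The falls of the respiratory chain genes became smaller, with medians of -1.63, -1.53 and -1.62 at 7 days and -1.26, -1.49 and -1.10 at 21 days. With the muscle share of each tendon as a covariate, 68, 68, 69 and 67 genes were lower in 7D 0 mg/kg and in 21D 0, 2 and 6 mg/kg, with medians of -1.54, -1.43, -1.60 and -1.34, and 3 genes each in 7D 2 and 6 mg/kg, with medians of -0.69 and -0.85. With that covariate 26.9%, 28.3%, 30.7% and 28.8% of all genes were lower in 7D 0 mg/kg and in 21D 0, 2 and 6 mg/kg. In 7D 2 and 6 mg/kg 6.53% and 6.84% of all genes were. Every control had a larger muscle share (19.9% or more) than every repaired tendon (9.99% or less). The covariate and surgery therefore cannot be told apart in any of the 6 comparisons with control. These counts do not show which falls would remain at an equal muscle share. In 7D 2 and 6 mg/kg every tendon also had a lower muscle share than every tendon of the other groups. In RNA from whole tissue, fewer cells of a type and less RNA per cell also cannot be told apart.

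**Figure D1:**
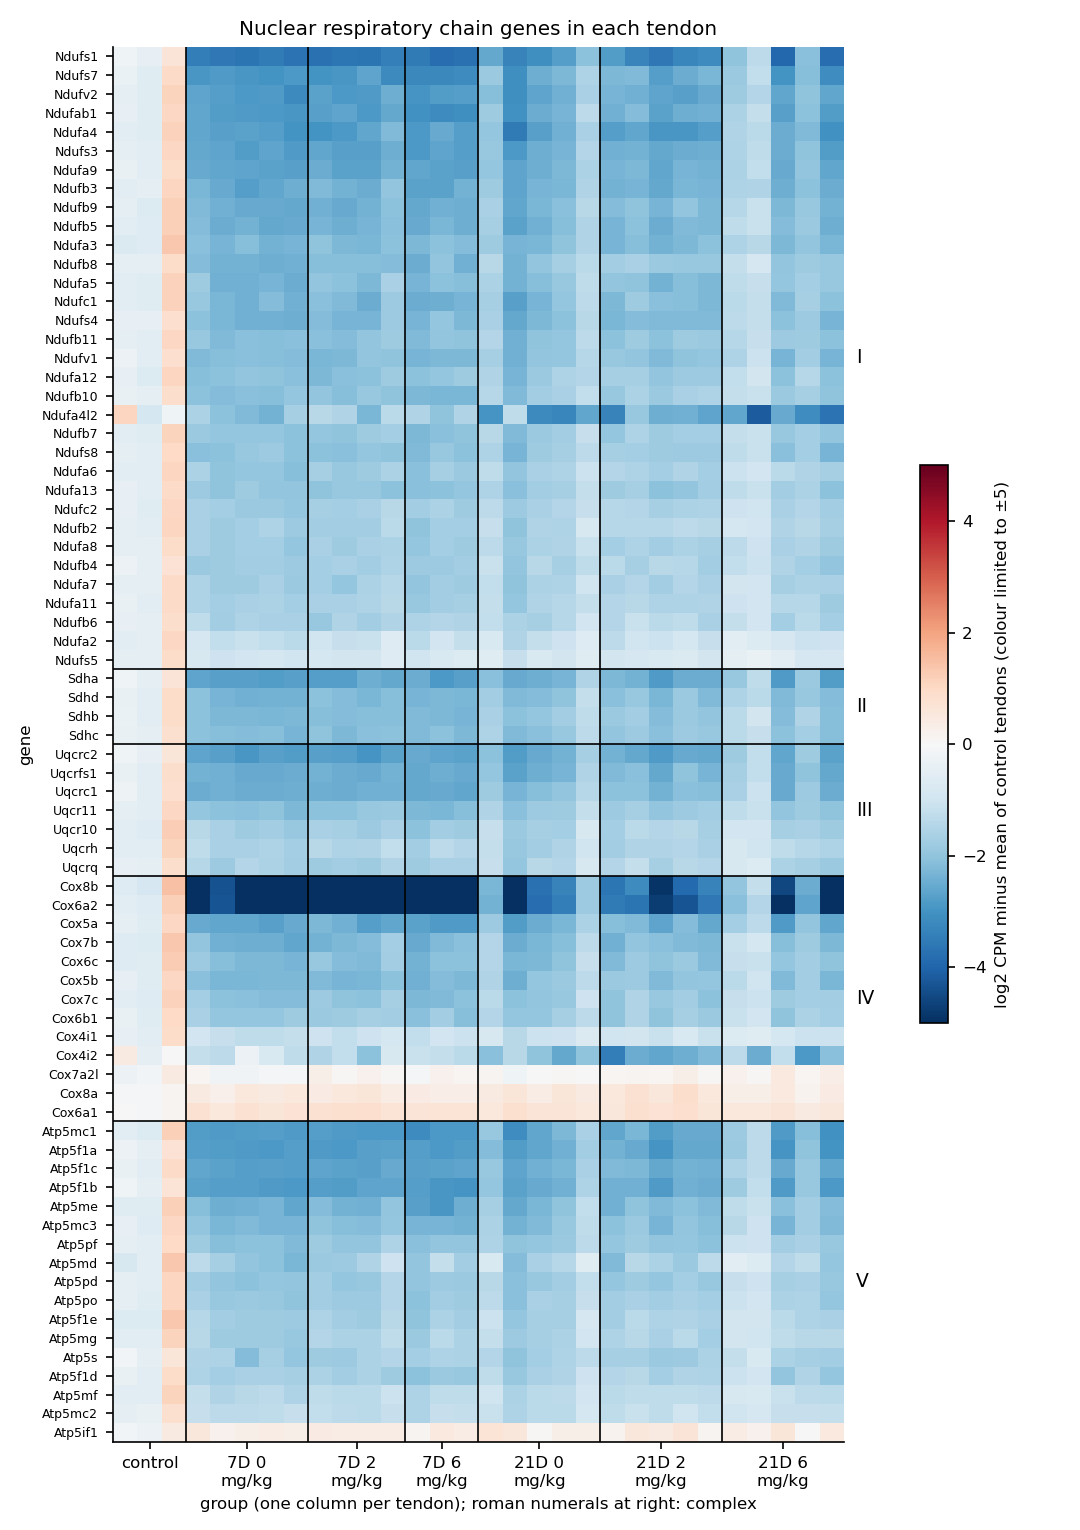
Heat map of the respiratory chain genes (rows, grouped by complex, 1 gene not shown) in the 30 tendons (columns, grouped by surgery, time and dose), as log2 CPM minus the mean of the control tendons, with colours limited to ±5. Rows are blue in the repaired tendons apart from Cox6a1, Cox8a, Atp5if1 and Cox7a2l, and the third control column, replicate 4, is redder than the other 2.

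The medians of the 5 complexes lay close together. The median log2 fold change in 7D 0 mg/kg was -2.27 for complex I, -2.41 for complex II, -2.27 for complex III, -2.28 for complex IV and -2.14 for complex V. In 21D 0 mg/kg these medians were -1.96, -1.93, -1.84, -1.95 and -1.74. Without control replicate 4 the medians of complexes I to V were -1.71, -1.86, -1.60, -1.50 and -1.46 in 7D 0 mg/kg, and at 21 days -1.29, -1.41, -1.16, -1.20 and -1.14. With all 3 controls, all members of complexes I, II and III were lower in all 6 groups, and the genes that were not belonged to complexes IV and V. Without control replicate 4, 32 of the 34 members of complex I were lower in 21D 6 mg/kg, where Ndufa2 and Ndufs5 were not called.

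In complex I, which takes electrons from NADH, the deepest fall was that of Ndufs1, its largest iron-sulfur subunit. Ndufs1 had 609, 527 and 1086 CPM in the 3 controls, 54.3 to 64.3 (median 58.8) in 7D 0 mg/kg and 69.8 to 169 (median 104) in 21D 0 mg/kg. No repaired tendon reached the lowest control, and the log2 fold changes were -3.65 (SE 0.39, adjusted p = 1.5e-08) and -2.76 (SE 0.38, adjusted p = 1.2e-06). Ndufs7 and Ndufv2, iron-sulfur subunits named here after their values were seen, fell by 3.07 each in 7D 0 mg/kg. The smallest fall was that of Ndufs5, an accessory subunit: 32.4, 33.2 and 84.0 CPM in controls and 21.9 to 26.0 in 7D 0 mg/kg (log2 fold change -1.07, SE 0.20, adjusted p = 4.4e-05). Without control replicate 4, whose value was the 84.0, that fold change was -0.53 and was still called. Ndufb8, another accessory subunit, had 557, 569 and 1443 CPM in controls and 141 to 170 in 7D 0 mg/kg.

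The 4 subunits of complex II had the narrowest range of the complexes, -2.80 to -2.28 in 7D 0 mg/kg. Sdha, the flavoprotein that oxidises succinate, had 689, 577 and 1243 CPM in controls against 114 to 126 in 7D 0 mg/kg and 137 to 275 in 21D 0 mg/kg (log2 fold changes -2.80, SE 0.27, and -2.21, SE 0.27). Sdhc, one of its membrane anchors, had 471, 452 and 1072 CPM in controls and 122 to 149 in 7D 0 mg/kg. The groups did not overlap for either gene.

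Complex III, which passes electrons to cytochrome c, ran from -2.82 for Uqcrc2 to -1.75 for Uqcrq in 7D 0 mg/kg. Uqcrc2, a core subunit, had 574, 504 and 1021 CPM in controls and 89.4 to 108 in 7D 0 mg/kg. Uqcrc1, the other core subunit, had 653, 535 and 1402 CPM in controls and 140 to 148 in 7D 0 mg/kg, a narrow range beside that of the controls. Uqcrq, a small accessory subunit, had 324, 306 and 797 CPM in controls and 123 to 161 in 7D 0 mg/kg.

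In complex V, Atp5f1b, the catalytic beta subunit, had 4539, 3879 and 8573 CPM in controls, 732 to 832 (median 782) in 7D 0 mg/kg and 823 to 1848 (median 1019) in 21D 0 mg/kg. Its log2 fold changes were -2.87 (SE 0.29, adjusted p = 5.7e-09) and -2.24 (SE 0.29, adjusted p = 4.0e-07). The lowest value of the complex was that of Atp5mc1, a gene for the c-ring subunit, at -3.09 in 7D 0 mg/kg (279, 252 and 932 CPM in controls, 56.0 to 59.2 after repair), and without the control at 932 it was -2.27.

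Exceptions to the fall were few. Cox6a1 and Cox8a were higher than control in all 6 repaired groups, Atp5if1 was higher in 21D 0 and 21D 2 mg/kg, and Cox7a2l was called in none. Cox6a1 had 130, 123 and 143 CPM in controls, 188 to 226 in 7D 0 mg/kg and 188 to 227 in 21D 0 mg/kg, so that the groups did not overlap. Its log2 fold changes were 0.68 (SE 0.08, adjusted p = 1.5e-07) and 0.62 (SE 0.08, adjusted p = 8.7e-07). Cox8a had 85.6, 82.5 and 97.6 CPM in controls, 106 to 127 in 7D 0 mg/kg and 114 to 136 in 21D 0 mg/kg (0.44, SE 0.10, adjusted p = 0.00021, and 0.50, SE 0.10, adjusted p = 7.8e-05). With the muscle share as a covariate Cox8a was at 0.23 (adjusted p = 0.11) in 7D 0 mg/kg, where share and surgery cannot be told apart.

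Atp5if1 encodes the inhibitory factor that stops the ATP synthase from running backwards. It had 80.9, 73.7 and 121 CPM in controls and 93.9 to 145 in 21D 0 mg/kg, so that the groups overlapped. Its log2 fold change there was 0.37 (SE 0.16, adjusted p = 0.045), and 0.33 by DESeq2 (adjusted p = 0.055). The call was also lost without control replicate 2 (0.22, adjusted p = 0.27), control replicate 3 (0.26, adjusted p = 0.19), 21D 0 mg/kg replicate 1 (0.28, adjusted p = 0.12) or replicate 2 (0.33, adjusted p = 0.089). Cox7a2l, a factor of supercomplex assembly that the name rule takes in and that is described here because its values stood out, had 196, 215 and 322 CPM in controls and 210 to 254 in 7D 0 mg/kg (-0.11, SE 0.13, adjusted p = 0.45). Without control replicate 4, Atp5if1 was higher in all 6 groups and Cox7a2l in 7D 2, 21D 2 and 21D 6 mg/kg.

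**Figure D2:**
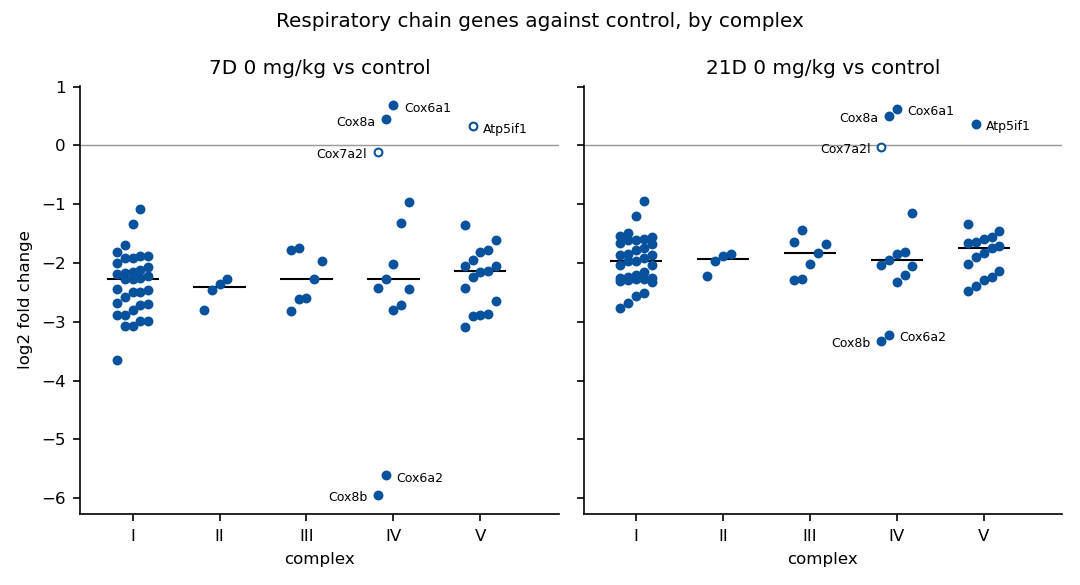
Log2 fold change of each gene (point) against control in 7D 0 mg/kg (left) and 21D 0 mg/kg (right), by complex; filled points have an adjusted p under 0.05 and lines are medians. Cox6a2 and Cox8b lie below all others in both panels, and Cox6a1, Cox8a and Atp5if1 lie above 0.

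The muscle isoforms of complex IV had the widest range of any members. Cox6a2, whose promoter with its E-box and MEF2 motif is shown above, had 1051, 993 and 3456 CPM in controls. It had 14, 18, 38.5, 40.8 and 76.3 CPM in 7D 0 mg/kg, all far below the lowest control. In 7D 2 mg/kg the 4 tendons held 0, 10, 4 and 2 counts of it, and in 7D 6 mg/kg the 3 tendons held 14, 4 and 3, so that it was close to undetected at either dose. At 21 days it was at 3.27 to 434 CPM with vehicle, 56.6 to 131 with 2 mg/kg and 18.6 to 551 with 6 mg/kg, below every control. The log2 fold changes against control were -5.61 (SE 0.98) in 7D 0 mg/kg and -3.22 (SE 0.90), -4.16 (SE 0.93) and -2.92 (SE 0.90) at 21 days. The fitted values of -13.43 and -13.07 in 7D 2 and 6 mg/kg rest on those few counts and depend on the count that edgeR adds before taking logs. Without control replicate 4 the values for vehicle were -4.83 at 7 days and -2.42 at 21 days, both still called.

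Cox8b behaved likewise. It had 387, 336 and 1637 CPM in controls, 2.07 to 28.7 in 7D 0 mg/kg, 5 counts in all over the 7D 2 mg/kg tendons and 15 over the 7D 6 mg/kg tendons. At 21 days it was at 0.472 to 167 CPM with vehicle, 19.8 to 66.5 with 2 mg/kg and 4.80 to 261 with 6 mg/kg. Within 21D 0 mg/kg, replicate 2 was lowest for both genes and also had the lowest muscle share, 0.0681%. Against control, Cox8b was lower in 21D 0 mg/kg by 3.32 on the log2 scale (SE 0.97, adjusted p = 0.0041), and without control replicate 4 by 2.24 (adjusted p = 0.058). At 7 days its value with vehicle was -5.94 (SE 1.06), and -4.88 without that control. In 21D 6 mg/kg neither Cox6a2 nor Cox8b was called lower without that control. With the muscle share as a covariate, Cox6a2 and Cox8b had 7D 0 mg/kg fold changes of -0.52 on the log2 scale (adjusted p = 0.32) and -0.90 (adjusted p = 0.32). Muscle share and surgery cannot be told apart in that comparison.

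Within a tendon, the share of a pair's counts that came from the muscle form does not depend on scaling between libraries, though it is not corrected for transcript length. Cox6a2 gave 88.9% to 96.0% of the counts of Cox6a2 and Cox6a1 in controls, 5.84% to 28.8% with vehicle at 7 days, 0% to 0.122% with 2 mg/kg and 0.0425% to 0.144% with 6 mg/kg. At 21 days the share was 1.42% to 69.8% with vehicle, 20.6% to 40.1% with 2 mg/kg and 8.65% to 74.4% with 6 mg/kg. Cox8b gave 80.3% to 94.4% of the counts of Cox8b and Cox8a in controls, 1.61% to 21.2% in 7D 0 mg/kg, and 0.346% to 58.0% in 21D 0 mg/kg. No repaired tendon reached the lowest control share for either pair. The mean log2 ratio of Cox6a2 to Cox6a1 was 3.54 ± 0.91 (SD, n = 3) in controls and -2.75 ± 1.07 (SD, n = 5) in 7D 0 mg/kg, and that of Cox8b to Cox8a was 2.76 ± 1.14 and -3.66 ± 1.46. The exact two-sided permutation test gave p = 0.036 for every comparison of 5 tendons with the 3 controls, 0.057 for 4 and 0.1 for 3. Each is the smallest p that such groups allow, and after adjustment over the 12 comparisons (0.054, 0.069 and 0.1) none could pass 0.05.

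**Figure D3:**
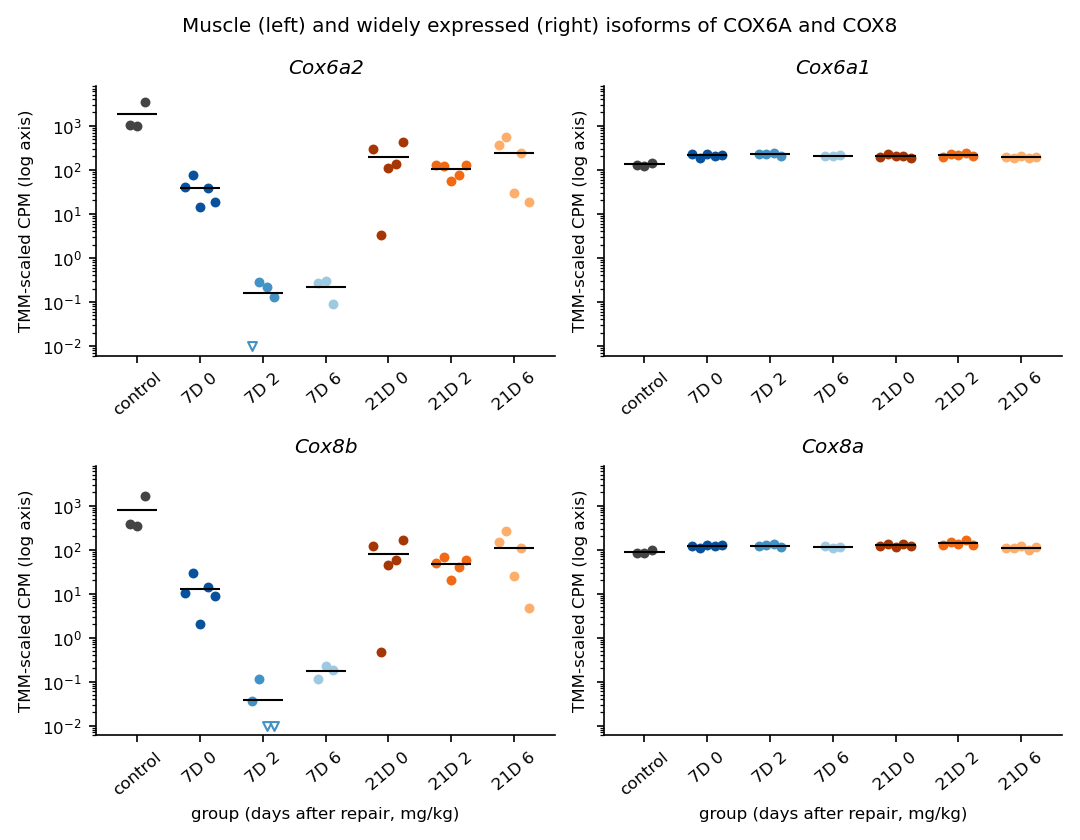
CPM (log axis) of Cox6a2 and Cox8b (left) and of Cox6a1 and Cox8a (right) in each tendon, by group; lines are group means and open triangles, drawn at 0.01, are tendons with 0 counts. The muscle forms range from 3456 CPM in a control to 0 in 7D 2 mg/kg, while Cox6a1 stays between 123 and 236 CPM.

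In some groups the tendon with the most muscle counts was also the highest for most respiratory chain genes, and in others it was not. Together the 75 genes took 2.16%, 2.24% and 4.61% of the counts in controls, 0.848% to 1.05% in the 12 7D tendons and 0.843% to 1.76% in the 15 21D tendons. Control replicate 4, with the highest muscle share, had the highest CPM of the 3 controls for 73 of 75 genes, where 42.6% of all genes were highest. In 21D 0 mg/kg, replicate 5 (8.21% muscle counts) was highest for 67 genes against 21.5% of all genes, and replicate 2 (0.0681%) lowest for 68 against 30.2%. In 21D 6 mg/kg, replicate 2 (9.99%) was highest for 61 genes against 23.6%, but the tendon with the least (0.349%) was lowest for 15 against 21.0%. In 21D 2 mg/kg the tendon with the most muscle counts (3.35%) was highest for 16 genes against 17.9%, and the one with the least (1.28%) lowest for 40 against 24.5%. At 7 days the tendon with the most was highest for 4 genes with vehicle, against 19.2% of all genes, for 50 with 2 mg/kg, against 30.8%, and for 42 with 6 mg/kg, against 34.5%, while in the latter 2 groups the muscle shares of all tendons lay between 0.00959% and 0.0128%. The 7D 2 and 6 mg/kg tendons, with under 0.013% of their counts on muscle markers, had 0.848% to 1.04% on the respiratory chain genes, within the range of the 7D 0 mg/kg tendons or just below it.

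**Figure D4:**
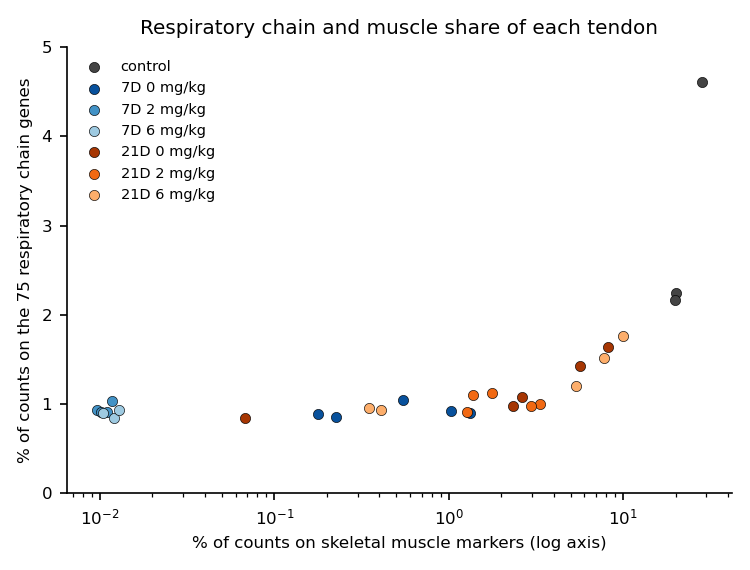
Percent of counts on the 75 respiratory chain genes against percent of counts on 31 skeletal muscle markers (log axis), 1 point per tendon, coloured by group. The share of the respiratory chain genes lies near 1% up to about 3% muscle counts and is highest, 4.61%, in the control with 28.3%.

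Cox4i2 and Ndufa4l2 went another way from most members over time. Both are alternative forms of a subunit, Cox4i2 of Cox4i1 and Ndufa4l2 of Ndufa4, and both are known for their rise at low oxygen. Cox4i2 had 13, 6.98 and 9.80 CPM in controls, 3.87 to 7.89 in 7D 0 mg/kg and 1.60 to 3.65 in 21D 0 mg/kg, so that at 0 mg/kg the 21-day tendons lay below all 7-day ones. Against control it was lower by 0.96 in 7D 0 mg/kg (SE 0.35, adjusted p = 0.017) and by 2.03 in 21D 0 mg/kg (SE 0.35, adjusted p = 2.2e-05). The first of these calls was lost without control replicate 2 (-0.78, adjusted p = 0.081) and with scaling by library size only (-0.35, adjusted p = 0.37). The fall from 7 to 21 days was 1.07 on the log2 scale at 0 mg/kg (SE 0.31, adjusted p = 0.045) and 1.28 at 2 mg/kg (SE 0.33, adjusted p = 0.012), and the value at 6 mg/kg was -0.67 (SE 0.36, adjusted p = 0.23). Leaving out any of 7 tendons ended the call at 0 mg/kg (replicate 3, 4 or 5 at 7 days, or any but replicate 2 at 21 days), and leaving out 7D 2 mg/kg replicate 5 ended that at 2 mg/kg. Cox4i1 differed from 7 to 21 days by 0.17, 0.06 and 0.24 and was not called.

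Ndufa4l2 had 251, 64.1 and 103 CPM in controls, 22.7 to 39.2 in 7D 0 mg/kg and 12.3 to 48.4 in 21D 0 mg/kg, where replicate 2 held the 48.4 and the other 4 lay at 19.4 or less. From 7 to 21 days it fell at 6 mg/kg by 1.45 (SE 0.43, adjusted p = 0.027), from 29.6 to 41.8 CPM to 6.49 to 20.5, with no overlap, and leaving out any of 5 tendons ended this call (7D 6 mg/kg replicate 1 or 5, or 21D 6 mg/kg replicate 2, 4 or 5). Its values at 0 and 2 mg/kg were -0.50 (SE 0.38, adjusted p = 0.45) and -0.90 (SE 0.40, adjusted p = 0.14). Ndufa4 itself, counted with complex I by its name although it is now placed in complex IV, was at 0.44, -0.15 and 0.72 at the 3 doses and was not called. Control replicate 4 was not high for these genes: its CPM over the mean of the other controls was 0.98 for Cox4i2 and 0.65 for Ndufa4l2.

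**Figure D5:**
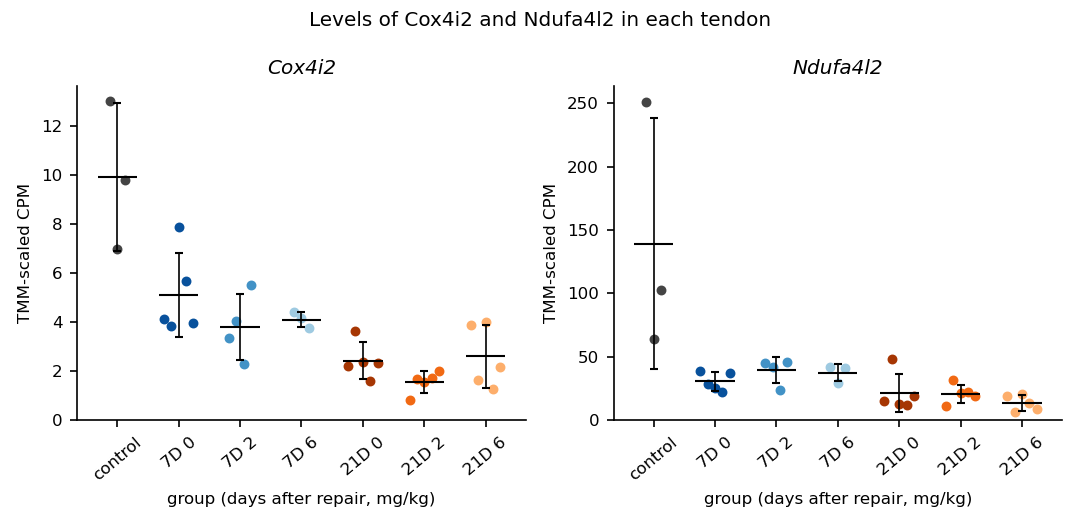
CPM of Cox4i2 (left) and Ndufa4l2 (right) in each tendon, by group; lines are means and bars ± 1 SD. Cox4i2 is lower at 21 days than at 7 days at 0 and 2 mg/kg, and the highest Ndufa4l2 value, 251 CPM, is a control.

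Between 7 and 21 days most members were higher, but few passed the test. At 0 mg/kg, 72 of 75 had a log2 fold change above 0, against 51.5% of all genes, with a median of 0.36, yet only Cox4i2 was called, lower, and none higher (18 at an unadjusted p under 0.05, and 3 higher by DESeq2). Of all genes, 2.47% were lower and 2.88% higher. At 2 mg/kg Cox6a2 and Cox8b were higher and Cox4i2 lower, where 7.09% and 5.98% of all genes were called, and the median of the members was 0.13. At 6 mg/kg Ndufa4l2 was lower and 8 members were higher, near the 8.54% of all genes called higher (4.55% lower), with a median of 0.56. Among them, named although most fall outside the naming rule, were Cox6a2, Cox8b, Ndufs1 (1.40, SE 0.41), Ndufab1 (1.13, SE 0.36), Ndufs7 (1.12, SE 0.36), Atp5me (1.05, SE 0.33) and Ndufb10 (0.74, SE 0.24), and those given here other than the muscle forms had an adjusted p of 0.024 to 0.043. Ndufs1 had 60.5, 50.7 and 52.6 CPM in 7D 6 mg/kg and 175, 284, 45.8, 167 and 49.8 in 21D 6 mg/kg, where the 2 low tendons, replicates 3 and 5, were those with muscle shares of 0.349% and 0.411%. Without replicate 3 or replicate 5 of that group 18 members were called higher, and without any other tendon of the 2 groups 2 or 3. The share of all genes called in these fits, by DESeq2 or at an unadjusted p under 0.05 is not given here. Those counts are not read as a result about the members. With the muscle share as a covariate no member was called higher. Every 21D 6 mg/kg tendon had a larger muscle share (0.349% or more) than every 7D 6 mg/kg tendon (0.0128% or less). Share and time therefore cannot be told apart there. Adipocyte markers also moved with time: 7 of 8 were lower at 21 than at 7 days with 2 mg/kg (median -3.05), 6 with 6 mg/kg (median -2.27) and 0 with vehicle (median -0.99), and their part in the result was not tested.

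The compound was compared with vehicle at each time. At 7 days the muscle forms of complex IV were lower with the compound, and no other respiratory chain gene was called. With the muscle share as a covariate 1 member was lower and 26 higher at 2 mg/kg, and 1 lower and 5 higher at 6 mg/kg. No 2 or 6 mg/kg tendon had a muscle share as high as that of any vehicle tendon, so that share and dose cannot be told apart. The share of all genes called in that fit is not given here, and these counts are not read as a result about the respiratory chain genes. Without the covariate, Cox6a2 and Cox8b were lower at 2 mg/kg than with vehicle, where 1.45% of all genes were lower and 0.908% higher. The 7D 0 mg/kg mean of Cox6a2, 37.5 CPM, was 239 times the 7D 2 mg/kg mean of 0.157, which rests on 16 counts (adjusted p = 0.0015). That of Cox8b, 12.8 CPM, was 93.0 times the CPM of 3 counts per tendon, a level above its mean in 7D 2 mg/kg (adjusted p = 0.0077). At 6 mg/kg Cox6a2 was lower (adjusted p = 0.017), where 0.39% of all genes were, and Cox8b had a fitted log2 fold change of -6.33 (SE 1.57, adjusted p = 0.087). Leaving out any 1 of the 3 7D 6 mg/kg tendons ended the Cox6a2 call. Skeletal muscle markers moved with these values: their median log2 fold change was -6.60 at 2 mg/kg and -6.42 at 6 mg/kg. The other 73 members differed by -0.43 (Cox4i2) to 0.36 (Ndufa4l2) at 2 mg/kg and by -0.31 to 0.30 for the same genes at 6 mg/kg, with median SEs of 0.25 and 0.27.

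At 21 days edgeR called none of the 75 genes at 2 or 6 mg/kg against vehicle, where 0% and 0% of all genes were called. DESeq2 also called none, and 1 and 2 members had an unadjusted p under 0.05. The 73 members other than Cox6a2 and Cox8b differed by -0.64 (Cox4i2) to 0.17 (Cox8a) at 2 mg/kg and by -0.65 (Ndufa4l2) to 0.40 (Ndufs1) at 6 mg/kg, each with a median SE of 0.23. For Cox6a2 the values were -0.93 (SE 0.79) and 0.30 (SE 0.78), and for Cox8b -0.75 (SE 0.84) and 0.48 (SE 0.83). Whether the dose effects differed between 7 and 21 days was tested by an interaction, called for 0.39% of all genes and for 1 member, Cox6a2 (adjusted p = 0.014), with Cox8b at adjusted p = 0.064. The Cox6a2 call was lost without 21D 0 mg/kg replicate 4.

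Other genes of mitochondrial energy metabolism were lower as well. The share of all genes lower than control was 33.3% to 35.6% over the 6 repaired groups. With vehicle it was 35.6% at 7 days and 33.7% at 21 days, and 35.8% and 32.2% were higher. Of 11 TCA cycle genes in the table, 11 were lower than control in every repaired group (median -2.58 with vehicle at 7 days, -2.14 at 21 days; without control replicate 4, -2.17 and -1.81). Of 44 assembly factors of the complexes, 40 were lower with vehicle at 7 days, 41 at 21 days, none higher in either, with medians of -1.42 and -1.20. For 71 mitochondrial ribosomal proteins the counts were 65 and 66 lower, none higher, with medians of -1.09 and -0.95. Without control replicate 4, 35 assembly factors were lower at either time (medians -1.12 and -0.96), and 50 and 51 mitochondrial ribosomal proteins (medians -0.67 and -0.55). Of all 12535 genes in that fit, 4438 and 4075 were lower. Of 6 other electron carriers and their partners 5 were lower in each of the 6 groups. Among 14 regulators of mitochondrial genes, 11 were lower and 2 higher in 7D 0 mg/kg, and 9 lower and 2 higher in 21D 0 mg/kg. Without control replicate 4, 11 regulators were lower and 1 higher in 7D 0 mg/kg, and 10 lower and 0 higher in 21D 0 mg/kg. The part of the muscle share in these values was not tested.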

How the data were processed

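RNA from the right plantaris tendon of 30 rats was sequenced. The authors trimmed adapters, mapped them to the rat genome rn6 with STAR and counted reads in exons of Ensembl genes, and the values they deposited are counts per gene and tendon, not normalized. Strand use in counting was not given in the sources used here, and reads of genes with near-identical copies, such as processed pseudogenes, may be split or lost. The authors' own table of fold changes and p-values was not used, except to read each gene's chromosome and width.

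Groups came from the labels. A gene was kept when its group mean reached 3 CPM in any of the 7 groups (12558 of 13124). All 30 tendons entered a single fit in edgeR 4.0.16 (R 4.3.3) with TMM scaling, a mean per group and the quasi-likelihood test, with Benjamini-Hochberg adjustment over all genes kept, as checked on simulated data. SE is the log2 fold change divided by the square root of its F statistic. CPM values are TMM-scaled, and log2 CPM for the heat map used a prior count of 2. Isoform ratios had 0.5 added to each count and were compared by exact permutation (scipy 1.17.1). The alternatives were DESeq2 1.42.0, other scalings, no filter, a fold of at least 1.5, subsets of groups, a replicate block, a muscle share covariate and leaving out each tendon. Libraries held 12405741 to 49909374 counts, so that 3 counts were 0.0601 to 0.242 CPM before TMM scaling, which covers counting error only. The labels number the replicates and do not say more of them. By the paper's methods the RNA of a group came from different rats, and p-values measure the spread between their tendons.

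The named genes were the isoform pairs, the members of each complex with the highest mean and the lowest and highest fold change in 7D 0 mg/kg, those higher than control in a repaired group, and the 3 with the smallest adjusted p between 7 and 21 days at each dose. The members and gene lists were chosen with earlier results of these data known. Of the members, 1 is counted but not reported by name.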

Additional observations from a re-analysis of the deposited data

Results flagged for a closer look

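A value was singled out where 1 tendon of a group of 4 or 5 lay far from the others by Dixon's test, or where dose effects differed between the 2 times. Of 120 sets of tendons tested, 7 had such a value, and chance alone gives about 1 in 20. Tendon 7D 0 mg/kg replicate 1 was above the other 4 in the summed CPM of complex II (539) and complex V (3677). Replicate 5 of 7D 2 mg/kg was low for Ndufb8 (170 CPM, others 175 to 176) and high for Uqcrq (152 CPM, others 126 to 130). Replicate 3 of 21D 2 mg/kg, which had the lowest muscle share of its group, was low for Uqcrc1 (151 CPM) and Atp5f1b (748 CPM). Ndufa4l2 was high in 21D 0 mg/kg replicate 2 (48.4 CPM), the tendon with the lowest muscle share of its group. The dose effect on Cox6a2 differed between 7 and 21 days in edgeR's interaction test (adjusted p = 0.014).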

How the results depend on the processing

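Under RLE scaling, without the filter on low counts and with muscle genes left out of the scaling, all 27 counts of members called stayed within 1.5 times the values reported, and no result reversed its direction. Scaling by library size only put the median of all genes at 0.51 to 0.64 on the log2 scale against control, where it was 0.01 to 0.05 in the values reported, and made 4 members higher in 7D 0, 2 and 6 mg/kg and 21D 6 mg/kg. Asking for a 1.5-fold change left 1 member higher in 21D 0 mg/kg and each 7D group, against 0 in 21D 6 mg/kg. With the muscle share as a covariate 1 member was higher in 7D 0 mg/kg and 21D 6 mg/kg, and 3 were lower and 0 higher in 7D 2 and 6 mg/kg. Between 21 and 7 days it gave 0 lower at 0 mg/kg, 20 lower at 2 mg/kg, and 0 lower and 0 higher at 6 mg/kg. For dose at 7 days it gave 1 lower and 26 higher at 2 mg/kg and 5 higher at 6 mg/kg, and for the interaction 9 members. The muscle share and the dose group cannot be told apart there. Nor can share and surgery in any comparison with control, or share and time at 2 and 6 mg/kg. For time, dose and interaction the share of all genes called with this covariate is not given here. Fitting only the groups compared gave 1 higher in 7D 6 mg/kg against control, 0 lower and 1 higher from 7 to 21 days at 0 mg/kg, 2 lower and 6 higher at 2 mg/kg, 3 higher at 6 mg/kg, and 2 lower in 7D 6 against 0 mg/kg. DESeq2 gave 3 higher from 7 to 21 days at 0 mg/kg, 16 higher at 6 mg/kg, 2 lower in 7D 6 against 0 mg/kg, and 2 members in the interaction. The shares of all genes called in these 2 alternatives are not given here. A replicate block gave 0 lower from 7 to 21 days at 0 mg/kg and no other count beyond 1.5 times; the replicate numbers do not pair the tendons (median r of 0.0069 between same-numbered tendons and 0.0088 between others). The cause of these changes was not tested.

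With each tendon left out in turn, 71 members stayed lower than control in 7D 0, 2 and 6 and 21D 2 mg/kg, 69 to 71 in 21D 0 mg/kg and 66 to 71 in 21D 6 mg/kg, and 2 to 3, 2 to 4, 2 to 3, 2 to 3, 2 to 4 and 1 to 4 were higher in the 6 groups. From 7 to 21 days 0 to 1 were lower at each dose, and 0 to 4, 2 to 2 and 2 to 18 higher at 0, 2 and 6 mg/kg. At 7 days 2 to 2 were lower with 2 mg/kg and 0 to 1 with 6 mg/kg, 0 to 2 were called in the interaction, and 0 at 21 days. For time, dose and interaction the share of all genes called in these fits is not given here. Of the named genes' results, 290 kept their call under the other alternatives, 13 lost it and 1 gained it. Adding 0.1 in place of 0.5 to each count left the direction of all 12 isoform ratios against control unchanged. How far the ratios moved was not compared with the spread between tendons. Cox8b had 0 to 4 counts per tendon in 7D 2 mg/kg, so the size of its ratio there depends on the count added. In 7D 2 and 6 mg/kg, levels of Cox6a2 and Cox8b rest on 0 to 14 counts per tendon, so that their depth allows no fold between those groups.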
